A study of Mus musculus with 9 samples.

Results

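Chromosome 10 was contacted by the mouse Dbp locus above the average outside the chromosome of Dbp in wild-type line 1 and a Bmal1-/- line. In wild-type line 2 it was not above that average. On all 9 arrays contacts were denser in a block between 79 and 81 Mb than on the rest of the chromosome. The contacts were read from 19736 array probes on chromosome 10, chosen by the chromosome column of the files, of 384942 probes per array in all and 365587 off chromosome 7, where Dbp lies. Of the chromosome 10 probes, 228 (1.16%) started within the block, which held 2.71% to 6.11% of the chromosome's high probes, those above the 95th percentile of their array, on the 9 arrays. Most high probes thus lay outside it. No probe was dropped. Chromosome conformation capture-on-chip (4C) links a chosen locus, the viewpoint, to the DNA lying next to it in the nucleus by crosslinking, restriction and ligation. The ligated partners are amplified from the viewpoint and hybridized to an array. A contact between chromosomes is rarer than one along the same chromosome and is seen in a fraction of the cells, so single fragments are captured irregularly and neighbourhoods of fragments are compared. Dbp is a transcription factor gene with a daily rhythm of expression, and Bmal1 is needed for the clock that drives such rhythms.

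The 9 arrays were of mouse embryonic fibroblasts, made from embryos at embryonic day 13 and synchronized with dexamethasone for 2 h. They came from C57BL/6 embryos, with head and liver removed. Wild-type (WT) line 1 has 5 arrays, for circadian times (CT) of 22, 26, 30, 34 and 46 h, while a Bmal1-/- line and WT line 2 have CT22 and CT34 only. Line 1 and the Bmal1-/- line were derived from siblings of one mating scheme and grown with newborn calf serum, heat-inactivated fetal bovine serum (FBS) and added amino acids. Line 2 came from a different cross and was grown with FBS alone. The Bmal1-/- genotype is therefore 1 line, and each line at each time is 1 array, so an SD over a line runs over its times. The headers name the line 2 arrays with 24 and 36 where the labels give CT22 and CT34. Each probe has a log2 ratio of the 4C product to genomic DNA, here centred on the median of each array, and a probe is called high when it exceeds the 95th percentile of its own array over probes off chromosome 7. By construction about 5% of probes off chromosome 7 are high on every array, and the measured share was 4.79% to 5.00%, since values carry 2 decimals and many are tied.

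The arrays were not equally informative. Line 2 had a narrower range of ratios: its threshold for high probes was 0.51 at CT22 and 0.52 at CT34, where the other 7 arrays had 1.64 to 2.73. At single probes, the array of line 1 at CT34 was more like the Bmal1-/- arrays than those of its own line. Over the chromosome 10 probes outside the block, its Pearson correlation was 0.50 and 0.47 with Bmal1-/- at CT22 and CT34, against 0.25 to 0.29 with the other 4 line 1 arrays and 0.39 between the Bmal1-/- arrays. It shared 42.5% and 41.5% of its high probes there with the Bmal1-/- arrays at CT22 and CT34 and 18.1% to 20.3% with other line 1 arrays. In windows outside the block the likeness depended on the measure. For means of 1 Mb windows its correlation was 0.88 to 0.89 with the other line 1 arrays, 0.81 with Bmal1-/- at CT22 and 0.90 with Bmal1-/- at CT34. For shares of high probes in 250 kb windows it was 0.62 and 0.68 with Bmal1-/- at CT22 and CT34, against 0.52 to 0.63 with the other line 1 arrays. Why this array shares probes with the other line was not tested. Line 1 means over the block, its flanks and the distance profile, and the counts of windows, are given with and without it.

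The whole of chromosome 10 was above the average of the other chromosomes in line 1 and in Bmal1-/-. High probes made up 6.25%, 6.22%, 6.52%, 6.28% and 6.31% of its probes in line 1 at CT22, CT26, CT30, CT34 and CT46. The share was 5.79% and 5.98% in Bmal1-/- at CT22 and CT34, and 4.78% and 4.74% in line 2. All 5 line 1 arrays lay above both Bmal1-/- arrays, and these lay above both line 2 arrays. Relative to all probes off chromosome 7, the fold of chromosome 10 was 1.27 ± 0.022 (SD, n = 5) for line 1, 1.27 ± 0.024 without CT34 (SD, n = 4) and 1.21 over 5 arrays without the block. It was 1.18 ± 0.025 (SD, n = 2) for Bmal1-/- and 0.99 ± 0.0076 (SD, n = 2) for line 2. Among 19 chromosomes off chromosome 7 it ranked 5 or 6 in line 1, 5 in both Bmal1-/- arrays, and 11 and 10 in line 2. The difference lay in the upper tail of the ratios. The mean log2 ratio of chromosome 10 differed from the mean off chromosome 7 by -0.012 to 0.0091 on WT arrays of both lines, and by 0.034 and 0.052 on the Bmal1-/- arrays.

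**Figure D1:**
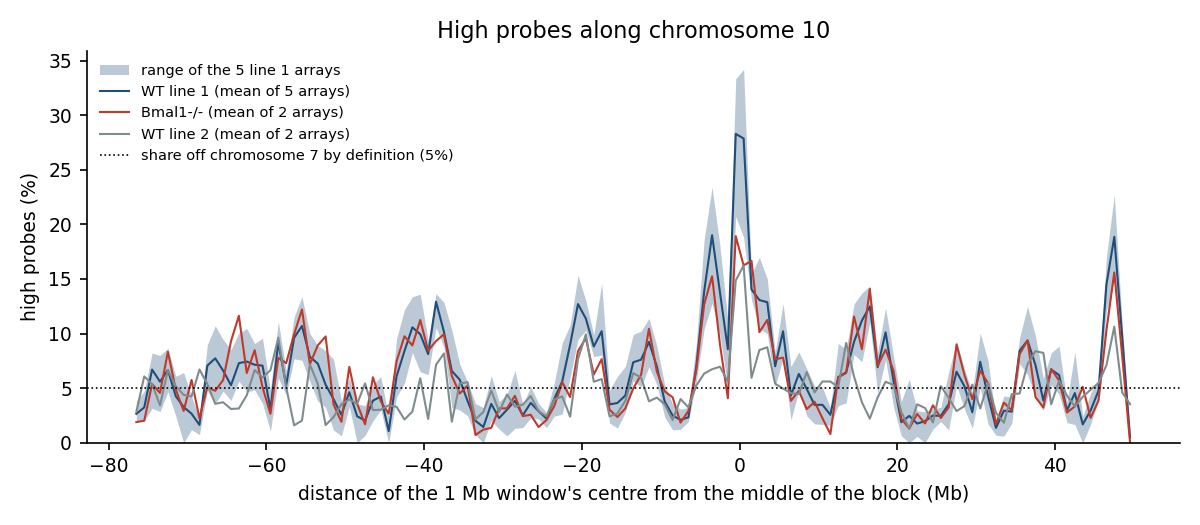
Share of high probes (percent) in windows of 1 Mb along chromosome 10, by distance from the middle of the block in Mb, as means of line 1 (5 arrays, with the range over arrays shaded), Bmal1-/- (2 arrays) and line 2 (2 arrays). The tallest peak is the block, at 28.3% and 27.9% in line 1, and a second rise stands near the distal end of the chromosome.

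The block stood far above the rest of the chromosome on all 9 arrays. In line 1 the share of high probes in it was 32.9% at CT22, 32.9% at CT26, 28.1% at CT30, 19.7% at CT34 and 26.8% at CT46. In Bmal1-/- it was 13.6% at CT22 and 21.5% at CT34, and in line 2 it was 15.8% and 15.4%. On the rest of chromosome 10 it stayed between 4.61% and 6.26% on all 9 arrays. The exact (Clopper-Pearson) 95% interval of the block's share lay above that of the rest on every array, with its nearest approach in Bmal1-/- at CT22, at 9.43% to 18.7% against 5.37% to 6.03%. These intervals cover counting error over probes only. The 4 line 1 arrays other than CT34 were above all other arrays, and line 1 at CT34 lay between the Bmal1-/- arrays. The fold of the block over the rest was 4.65 ± 0.97 (SD, n = 5) in line 1, 5.00 ± 0.64 (SD, n = 4) without CT34, 3.05 ± 0.93 for Bmal1-/- and 3.36 ± 0.046 for line 2 (SD, n = 2 each). The block was singled out with these values known, so its height is a description without a test.

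**Figure D2:**
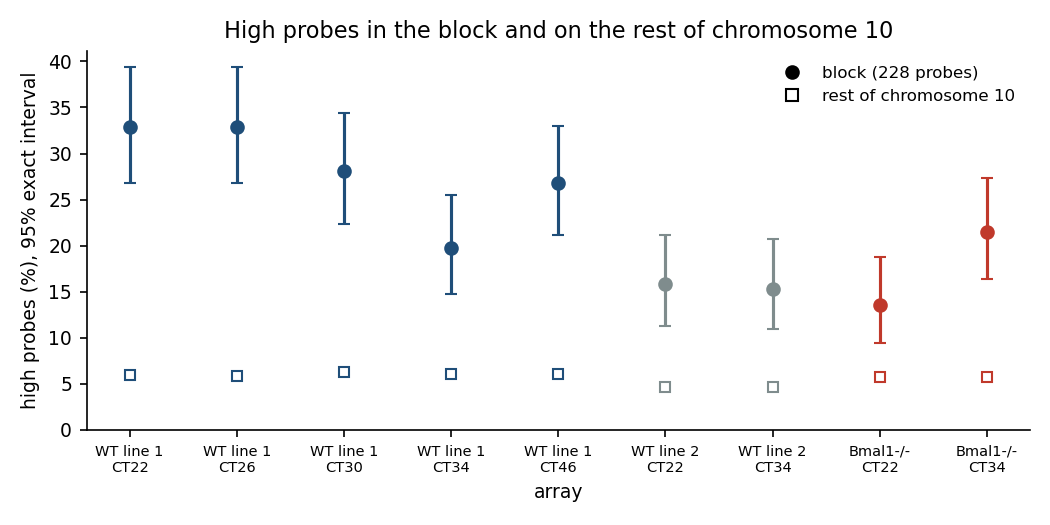
Share of high probes (percent) on each array in the block (filled circles, 228 probes) and on the rest of chromosome 10 (open squares), with exact 95% intervals over probes. The block lies above the rest on all 9 arrays, from 13.6% in Bmal1-/- at CT22 to 32.9% in line 1 at CT22 and CT26.

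In line 1 and Bmal1-/- the lower part of the distribution of ratios was raised in the block as well as the upper tail. The median log2 ratio of its probes was 0.69 ± 0.22 (SD, n = 5) in line 1, against -0.07 ± 0.014 on the rest of the chromosome. Without CT34 the median in the block was 0.77 ± 0.16 (SD, n = 4). The medians in the block were 0.36 and 1.43 in Bmal1-/- at CT22 and CT34, and 0.14 and 0.11 in line 2. Even the 25th percentile of the block in line 1, 0.16 ± 0.067 (SD, n = 5), stood near the 75th percentile of the rest, 0.25 ± 0.039 (SD, n = 5), and without CT34 these were 0.18 ± 0.046 and 0.26 ± 0.039 (SD, n = 4). The 25th percentile in Bmal1-/- was -0.04 and 0.25 in the block at CT22 and CT34, against -0.27 and -0.32 on the rest. For line 2 it was -0.14 and -0.12 in the block against -0.18 and -0.19 on the rest. The 10th percentile of line 2 was lower in the block at CT22, -0.39 against -0.34, and higher at CT34, -0.30 against -0.35. The mean of the block was 1.24, 1.12, 1.15, 0.94 and 1.28 in line 1 in order of time, 0.79 and 1.50 in Bmal1-/- and 0.17 and 0.23 in line 2. By this measure Bmal1-/- at CT34 was the highest of the 9 arrays, while by the share of high probes it stood below 4 of the 5 line 1 arrays. That array also had the highest threshold, 2.73, and the largest SD over probes, 1.10.

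Both 1 Mb windows of the block ranked high among all 2388 windows off chromosome 7. The window from 79000001 to 80000000 (111 probes) ranked 2, 4, 3, 13 and 3 by share in line 1 at CT22, CT26, CT30, CT34 and CT46, 24 and 8 in Bmal1-/- and 2 and 19 in line 2. The window from 80000001 to 81000000 (117 probes) ranked 3, 1, 4, 28 and 4 in line 1, 146 and 12 on the Bmal1-/- arrays, and 4 and 3 on those of line 2. The lowest rank in both windows was that of Bmal1-/- at CT22. Coordinates are those of the files, for which the sources used here give no genome build, so no gene or exon is assigned to any window.

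The block had fewer probes per Mb than most of the chromosome, with a median of 6356 bp between probe starts against 4990 bp on chromosome 10. Across the 127 windows of 1 Mb, the number of probes and the share of high probes had a Pearson correlation between -0.32 and -0.16 on the 9 arrays, a description over windows of the same chromosome. In 155 windows off chromosome 7 with 101 to 127 probes, a density like the block's, the mean share in line 1 was 4.81%. The highest was 25.3%, so 0 of 155 reached the block. The block was singled out with these values known, so this comparison is a description without a test. Whether probe density bears on the share was not tested.

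Within the block, high probes were spread over its length with a maximum near the middle. The 8 windows of 250 kb had mean shares in line 1 from 19.3% ± 7.41 (SD, n = 5) in the last, from 80750001 to 81000000, to 41.3% ± 7.13 in the window from 80000001 to 80250000. In that top window the shares were 37.5%, 53.1%, 40.6%, 40.6% and 34.4% in line 1 in order of time, 25.0% and 43.8% in Bmal1-/- and 18.8% and 21.9% in line 2. Line 1 at CT34 was as high here as at CT30, and Bmal1-/- at CT34 lay within the line 1 range. The other windows of the block gave line 1 means of 25.2% (79000001 to 79250000), 29.6% (79250001 to 79500000), 29.7% (79500001 to 79750000), 28.7% (79750001 to 80000000), 25.2% (80250001 to 80500000) and 23.8% (80500001 to 80750000). Without CT34 the line 1 means of the 8 windows ran from 21.4% in the last to 41.4% in that top window. The last window had 28.6%, 25.0%, 17.9%, 10.7% and 14.3% in line 1, 0% and 7.14% on the Bmal1-/- arrays, and 17.9% and 25.0% on those of line 2. Both Bmal1-/- arrays were below all others there, and the line 2 arrays lay within the line 1 range. A count of 0 among its 28 probes allows a share of up to 10.7% by an approximate bound of 3 counts, which treats probes as independent. Line 1 at CT34 had that share, and whether Bmal1-/- at CT22 differs from it was not tested.

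**Figure D3:**
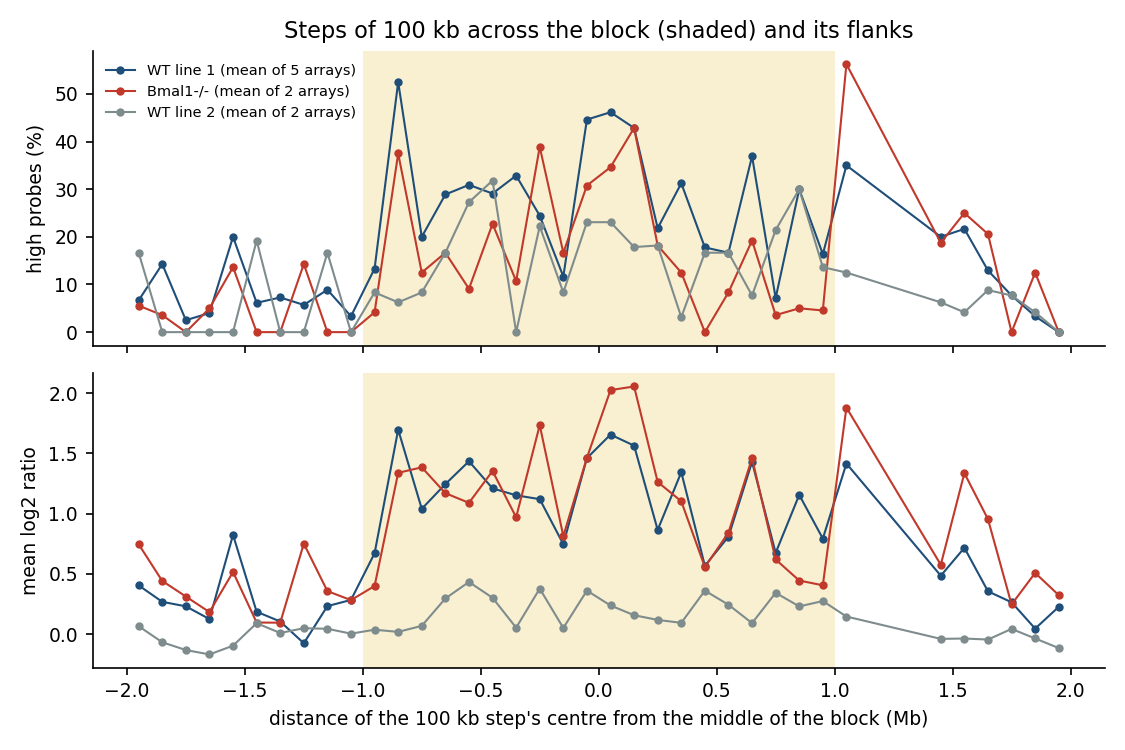
Share of high probes (percent, top) and mean log2 ratio (bottom) in steps of 100 kb, by distance from the middle of the block in Mb, as means of line 1 (5 arrays), Bmal1-/- (2 arrays) and line 2 (2 arrays). Steps with fewer than 5 probes are left out and lines join across them. Line 1 rises from 3.33% in the last step before the shaded block to 52.5% in the second step inside it, and stays raised beyond its distal edge.

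In line 1 the edges of the block differed, in steps that hold few probes. On the centromere-proximal side the share in line 1 was 3.33% in the 100 kb before 79000001, which held 6 probes. It was 13.3% in the next 100 kb and 52.5% in the step from 79100001 to 79200000, which held 8 probes. In line 2 these steps had 0%, 8.33% and 6.25%. On the distal side the mean share in line 1 and Bmal1-/- did not drop in the first 250 kb past 81 Mb, while that in line 2 did. The 250 kb window from 81000001 to 81250000, with 11 probes, had 27.3%, 45.5%, 45.5%, 36.4% and 9.09% in line 1, 45.5% and 36.4% in Bmal1-/- and 9.09% in both line 2 arrays. It was the highest window outside the block in line 1. Beyond it, from 81900001 to 82000000, 0 of 8 probes were high on any line 1 array. The 1 Mb window from 81000001 to 82000000 had a mean share of 14.0% in line 1. Counted by wider stretches, the share in line 1 was 14.3% ± 1.75 (SD, n = 5) from 75 to 79 Mb and 13.2% ± 1.34 from 81 to 84 Mb, against 28.1% ± 5.43 in the block. Without CT34 these were 14.4% ± 2.00, 13.2% ± 1.55 and 30.2% ± 3.21 (SD, n = 4). Both flanks were also above the whole chromosome in Bmal1-/-, at 10.8% ± 2.14 and 12.0% ± 1.25 (SD, n = 2), and in line 2, at 6.46% ± 1.14 and 8.06% ± 0.71 (SD, n = 2).

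Probes high on every array of a line made up a larger share of the block than of the rest of the chromosome, but were few. More repeats are to be expected in the block, where single line 1 arrays had 19.7% to 32.9% high probes, against 5.91% to 6.26% on the rest. In line 1, 148 of the 228 block probes (64.9%) were high on at least 1 array and 7 (3.07%) on all 5, against 22.3% and 0.297% of the 19508 probes on the rest. Without CT34, 15 block probes (6.58%) were high on all 4 line 1 arrays, against 0.369% on the rest. In line 2, 17 block probes (7.46%) were high on both arrays, and in Bmal1-/- 18 (7.89%), against 2.11% and 1.93% of the probes on the rest. Among the probes high on at least 1 array of line 2, 31.5% repeated in the block and 29.5% on the rest. In Bmal1-/- these were 29.0% and 20.2%. Such repeats start from unlike shares, as 15.8% and 15.4% of block probes and 4.65% and 4.61% of the rest were high on the line 2 arrays. The probe starting at 80006697 was high on 8 arrays, with log2 ratios of 4.66, 4.57, 4.40, 4.94 and 4.07 in line 1, 5.50 and 4.52 on the Bmal1-/- arrays, and 0.55 and 0.46 on those of line 2. It missed only the array of line 2 at CT34. The probe at 79469633 reached 2.13, 2.52, 3.75, 1.79 and 4.56 in line 1, 3.22 and 3.77 on the Bmal1-/- arrays, and 1.52 and 1.88 on those of line 2. It missed only line 1 at CT34. The probe at 80313363 had the highest line 1 mean of the 10 probes high on most arrays, 4.71, and 5.12 and 4.65 in Bmal1-/-, but only 0.29 and 0.16 in line 2. Line 2 thus did not share that probe. The other 7 of these 10, which started at 80079730, 79299869, 79920498, 79124987, 80122763, 79964844 and 80694646, were high on 6 to 8 arrays, with line 1 means from 2.36 to 3.48. No block probe was high on all 9 arrays. On chromosome 10 there were 3 such probes, at 42162309, 82384584 and 88992321, with line 1 means of 3.88, 3.78 and 2.95.

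Pairs of line 1 arrays shared 32.8% to 60.0% of their high probes in the block and 18.1% to 20.9% on the rest of chromosome 10. Without CT34 the ranges were 40% to 59.0% and 18.2% to 20.9%. Unrelated high probes would be shared at about the share of high probes on the other array. That share was 19.7% to 32.9% in the block and 5.91% to 6.26% on the rest in line 1. The ranges alone thus do not show that probes repeat better in the block. The line 2 arrays shared 47.2% and 48.6% of theirs in the block and 45.4% and 45.8% on the rest. A line 1 and a line 2 array shared 11.5% to 42.9% in the block and 4.56% to 8.44% on the rest. The line 2 arrays' own shares of high probes were 15.8% and 15.4% in the block and 4.65% and 4.61% on the rest. Own shares of both lines lay within the ranges of sharing between the lines. Whether line 1 and line 2 shared more or fewer probes than these shares give was not tested.

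A second raised stretch lay near the distal end. From 126 to 128 Mb the share in line 1 was 15.6%, 16.7%, 19.5%, 14.2% and 17.4% in order of time, in Bmal1-/- 10.3% and 15.6%, and in line 2 8.51% and 9.22%. The stretch was named after its values were seen, so the gap between line 1 and line 2 there is a description without a test. The line 1 mean was 16.7% ± 1.99 (SD, n = 5), and 17.3% ± 1.65 without CT34 (SD, n = 4). From 128 to 129 Mb the line 1 mean fell to 9.75% ± 1.27 (SD, n = 5), and from 129 Mb to the last probe it was 0.47% ± 0.43, with 0 of 127 probes high in both Bmal1-/- arrays and 4.72% and 2.36% in line 2. By the approximate bound of 3 counts, with probes taken as independent, a count of 0 of 127 allows a share of up to 2.36%. The last window of 1 Mb was the lowest of the 127 in line 1. The first, from 3000001 to 4000000, had 2.66% ± 0.83 in line 1, 1.90% in Bmal1-/- and 2.85% ± 0.45 in line 2. So neither end of the probed chromosome was raised, and the stretch at 126 to 128 Mb ended before the last Mb.

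The 10 windows of 250 kb with the highest line 1 mean outside the block lay in these neighbourhoods. Besides the windows from 81000001 to 81250000 and from 81250001 to 81500000, which held 11 probes each, they began at 126750001, 127500001, 127750001 and 128000001, at 75750001, 76500001 and 76750001, and at 82250001. Their line 1 means ran from 18.2% to 32.7%, their Bmal1-/- means from 12.5% to 40.9% and their line 2 means from 2.00% to 16.7%. The window from 127500001 to 127750000 was the highest of them in line 2, with 19.4% and 13.9%, beside 25.0%, 27.8%, 36.1%, 16.7% and 27.8% in line 1. The 5 lowest windows began at 35250001, 32250001, 129750001, 47500001 and 34750001, and had no high probe on any line 1 array. There were 7 such windows of 508 on chromosome 10, where 3.15% of windows off chromosome 7 were of this kind. Over their 224 probes the mean share was 1.31% in Bmal1-/- and 3.92% in line 2.

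The windows with many high probes on every array lay in a few neighbourhoods. In line 1, 12 of 127 windows of 1 Mb had at least 10% high probes on all 5 arrays, where 5.7% of windows off chromosome 7 did. They were the windows beginning at 41, 60, 75, 76, 79, 80, 81, 82, 83, 96, 126 and 127 Mb. Without CT34 the count was 13, the window at 77 Mb being added. Both Bmal1-/- arrays reached 10% in 9 windows (6.49%) and both line 2 arrays in 3 (1.34%). On all 9 arrays the count was 3, at 79, 80 and 127 Mb, where the share off chromosome 7 was 0.879%. With windows of 250 kb, 30 of 508 reached 10% on all 5 line 1 arrays (off chromosome 7, 4.2%) and 32 without CT34, 52 on both Bmal1-/- arrays (7.69%) and 23 on both line 2 arrays (4.44%). In line 2 the share of chromosome 10 windows was thus near the background at 250 kb (4.53%), while at 1 Mb it was 2.36% and rested on 3 windows, 2 of them those of the block. In segments of 10 Mb, line 1 was lowest from 100 to 110 Mb, at 3.19% ± 0.78 (SD, n = 5), and highest from 80 to 90 Mb, at 9.68% ± 0.80, or 8.10% with the block left out.

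High probes had raised neighbourhoods outside the block too. Around a high probe of a line 1 array, the share of high probes on the same array was 1.41-fold ± 0.15 (SD, n = 5) the rest of chromosome 10 up to 10 kb away, 1.32-fold ± 0.051 at 250 to 500 kb, 1.14-fold ± 0.048 at 1 to 2 Mb and 0.96-fold ± 0.014 at 2 to 5 Mb. The values between different arrays of line 1 were close to these, at 1.39-fold up to 10 kb and 1.30-fold at 250 to 500 kb. Without CT34 the folds on the same array were 1.45 ± 0.13 up to 10 kb, 1.33 ± 0.048 at 250 to 500 kb, 1.14 ± 0.055 at 1 to 2 Mb and 0.96 ± 0.011 at 2 to 5 Mb (SD, n = 4). The raised neighbourhoods were therefore common to the line 1 arrays. Bmal1-/- followed a like course, with 1.45-fold ± 0.080 (SD, n = 2) up to 10 kb and 1.27-fold ± 0.044 at 250 to 500 kb. Line 2 had 1.22-fold ± 0.00060 (SD, n = 2) up to 10 kb and 1.05-fold ± 0.020 at 250 to 500 kb. At the same probe on another array of the line the fold was 3.22 in line 1, 5.84 in Bmal1-/- and 9.84 in line 2. The repeat of single probes was thus strongest in line 2, where neighbours were raised least.

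**Figure D4:**
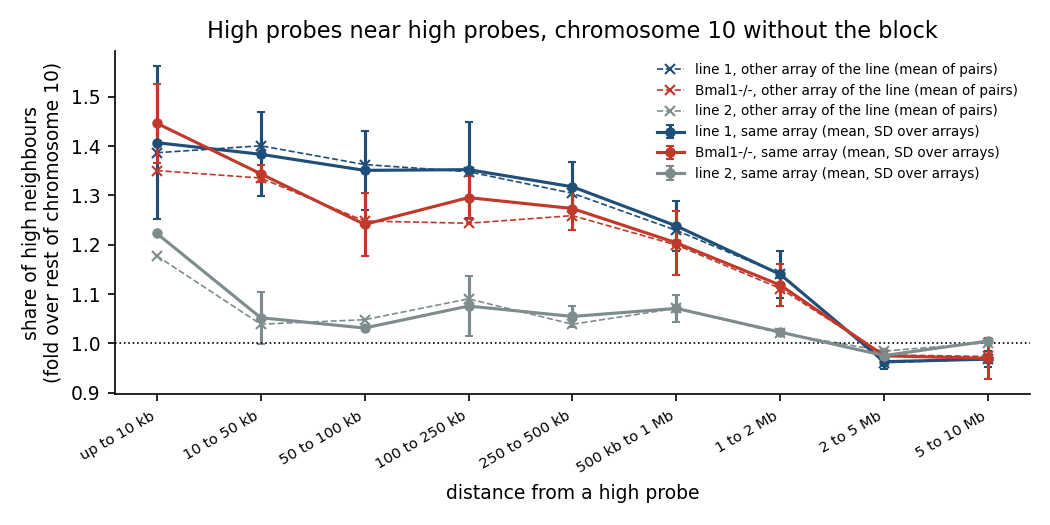
Share of high probes at a given distance from a high probe, as a fold of the rest of chromosome 10 (the block left out), on the same array (mean and SD over arrays) and on another array of the line (mean of pairs). Line 1 and Bmal1-/- start at 1.41 and 1.45 up to 10 kb and lie below 1 at 2 to 5 Mb, while line 2 lies between 1.02 and 1.09 from 10 kb to 2 Mb.

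The profiles along the chromosome were alike in line 1 and Bmal1-/- and less so in line 2. Over the 1 Mb windows outside the block, the Pearson correlation of window means had a median of 0.89 over the 10 pairs of line 1 arrays (0.88 to 0.91), 0.85 between line 1 and Bmal1-/- (0.74 to 0.91 over 10 pairs), 0.88 between the Bmal1-/- arrays, 0.83 between the line 2 arrays and 0.61 between line 1 and line 2 (0.59 to 0.68 over 10 pairs). These correlations are descriptions over 125 windows of the same arrays.

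The comparison of CT34 with CT22 asked whether contacts of Dbp differ between circadian times in WT cells. On chromosome 10 no window passed. With limma and Benjamini-Hochberg adjustment over all windows of the genome, 0 of 508 windows of 250 kb and 0 of 127 of 1 Mb had an adjusted p under 0.05 (over all windows tested, 0.0% and 0.0%). An unadjusted p under 0.05 was also reached by 0 of 508 and 0 of 127 (0.0199% and 0.0%). With the trend and robust settings of limma 0 passed too, and 5 of 508 and 1 of 127 had an unadjusted p under 0.05 (0.658% and 0.357%). The fit had 2 lines at each time, and the lines differ in the range of their ratios, which enters the error of this fit. With the line as a replicate block the unadjusted count was 17 of 508 (2.85%) and 10 of 127 (7.3%), the adjusted count on chromosome 10 stayed 0 at both sizes (0.0% and 0.674% of all windows), and the window from 80000001 to 81000000 had -0.16 (SE 0.048, limma adjusted p = 0.13). The chromosome 10 windows with the smallest p in the fit without the block began at 67750001, 107750001 and 111750001 (250 kb), with differences of -0.22, -0.23 and -0.14, and at 101000001, 122000001 and 114000001 (1 Mb), with -0.09, -0.09 and -0.06. Their limma adjusted p-values were all 1.00.

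In the block the lines did not move together between CT22 and CT34. The share of high probes was 13.2 percentage points lower at CT34 in line 1, where the difference is 1 array against 1 and rests on the array that resembled Bmal1-/-. It fell by 0.44 percentage points in line 2, which is 35 against 36 high probes of 228, and was 7.89 points higher at CT34 in Bmal1-/-. By the mean log2 ratio the differences were -0.30 in line 1, 0.06 in line 2 and 0.71 in Bmal1-/-. In the fit over both WT lines the windows at 79 and 80 Mb had -0.08 (SE 0.52) and -0.16 (SE 0.47), with limma adjusted p-values of 1.00. The genotype by time interaction, a term added after the values were seen, was 0.80 (SE 0.90) and 0.87 (SE 0.82) in these windows, with limma adjusted p = 0.99 for both. On chromosome 10, 0 of 508 and 0 of 127 windows passed for the interaction (0.0% and 0.0%), and 14 of 508 and 2 of 127 had an unadjusted p under 0.05 (2.28% and 0.436%).

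A rhythm of 24 h over the 7 WT arrays was tested with a cosine and a sine term and line as a term. No chromosome 10 window passed (limma, 0 of 508 and 0 of 127; over all windows 0.0% and 0.0%), and 23 of 508 and 8 of 127 had an unadjusted p under 0.05, near the 5.3% and 6.51% of all windows. The smallest p among windows of 1 Mb were at 88000001, 27000001 and 5000001, with fitted amplitudes of 0.15, 0.14 and 0.19 and limma adjusted p = 0.67 each. Among windows of 250 kb they were at 117250001, 75500001 and 81500001, with 0.39, 0.34 and 0.40 and adjusted p = 0.86 each. The windows of the block had amplitudes of 0.05 and 0.10, with adjusted p of 0.78 and 0.67. With trend and robust settings 0 windows of either size passed as well, and 40 of 508 and 17 of 127 had an unadjusted p under 0.05 (6.12% and 9.28%). The fitted peaks of the 3 windows of 1 Mb lay at 16.0 to 16.2 h, where no WT array was taken.

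The comparison of Bmal1-/- with WT asked whether contacts of Dbp depend on the clock gene. With median centring, chromosome 10 window means were higher in Bmal1-/- along most of the chromosome, and the size of the difference depended on the scaling. Over the 6 arrays at CT22 and CT34 with time as a term, 0 of 508 and 0 of 127 windows passed (limma, over all windows 0.0% and 0.0%). An unadjusted p under 0.05 was reached by 145 of 508 and 53 of 127, all higher in Bmal1-/-, where 18.3% and 25.0% of all windows reached it. The median difference over chromosome 10 was 0.18 at 250 kb, and it was 0.14 over all windows. Quantile normalization, which gives each array the same distribution, moved these medians to 0.01 and -0.02. Of the chromosome 10 windows of 1 Mb, 70 of 127 were then higher in Bmal1-/-, where 1051 of all 2521 were. An unadjusted p under 0.05 was then reached by 38 of 508 windows of chromosome 10, 33 higher and 5 lower in Bmal1-/- (5.31% of all windows), and by 13 of 127, 12 higher and 1 lower (6.19%), and 0 of either size passed (0.0% and 0.0793%). The SD over probes was 0.92 and 1.10 on the Bmal1-/- arrays and 0.39 and 0.41 on the line 2 arrays that entered as WT. With the trend and robust settings of limma, 38 of 508 and 40 of 127 chromosome 10 windows passed (3.43% and 14.2% of all windows), all higher in Bmal1-/-. The smallest p among windows of 1 Mb were at 10000001, 22000001 and 39000001, with differences of 0.26 (SE 0.041), 0.32 (SE 0.054) and 0.45 (SE 0.077) and limma adjusted p = 0.19 each. Among windows of 250 kb they were at 15000001, 110000001 and 97500001, with 0.48, 0.43 and 0.53 and adjusted p = 0.24 each.

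Against line 1 alone, its relative by descent, at the matched times of CT22 and CT34 and with time as a term, 0 of 508 and 0 of 127 windows passed (limma, over all windows 0.0% and 0.0%), with smallest adjusted p-values of 0.10 and 0.39. That fit has 4 arrays and 1 residual degree of freedom, and 78 of 508 and 34 of 127 windows had an unadjusted p under 0.05, all higher in Bmal1-/- (9.86% and 12.6%). Windows passed only in the fits that add line 1 times with no Bmal1-/- array or, over both WT lines, with the trend and robust settings. Against line 1 at all 5 times and without a time term, 21 of 127 windows of 1 Mb were higher in Bmal1-/- at a limma adjusted p under 0.05 and none was lower (over all windows, 10.1%). At 250 kb the count was 3 of 508 (0.269%), at 15000001, 97500001 and 110000001. The first by p was the window from 16000001 to 17000000. Its means were 0.24, 0.17, 0.13, 0.22 and 0.22 in line 1 in order of time and 0.62 and 0.55 in Bmal1-/-. The groups did not overlap, and the difference was 0.39 (SE 0.046, limma adjusted p = 0.0056). The window from 27000001 to 28000000 had 0.14, 0.02, 0.01, 0.14 and 0.13 in line 1 and 0.44 and 0.40 in Bmal1-/-, a difference of 0.33 (SE 0.052, adjusted p = 0.014). The window from 97000001 to 98000000 had 0.14, 0.13, 0.03, 0.22 and 0.18 in line 1 and 0.43 and 0.57 in Bmal1-/- (0.36, SE 0.060, adjusted p = 0.016). The window from 81000001 to 82000000, next to the block, had 0.41, 0.38, 0.54, 0.60 and 0.47 in line 1 and 0.69 and 0.98 in Bmal1-/- (0.36, SE 0.083, adjusted p = 0.036). Without line 1 at CT34, 14 of 127 windows of 1 Mb passed (4.84% of all), all higher, and 0 of 508 of 250 kb (0.0598%), where 147 of 508 had an unadjusted p under 0.05 (20.2%). The windows at 16, 27, 81 and 97 Mb were among the 14. Both Bmal1-/- arrays lay above all 5 line 1 arrays in the mean of 69 of 127 windows of 1 Mb (38.8% of all) and below them in 0 (0.238%). In the share of high probes, which is set within each array, they lay above in 3 (4.84%), at 10, 30 and 81 Mb, and below in 3 (5.04%), at 41, 59 and 91 Mb. Fitted on that share against line 1 at 5 times, 0 of 506 windows of 250 kb and 0 of 127 of 1 Mb passed (limma, 0.0305% and 0.238% of all windows). The median difference at 1 Mb was then -0.35 percentage points, with 48 of 127 windows higher in Bmal1-/-, and 36 of 506 and 14 of 127 had an unadjusted p under 0.05 (6.42% and 9.56%). After quantile normalization, chosen after the data were seen, 4 of 127 remained (2.22%), beginning at 16, 27, 30 and 97 Mb, all higher in Bmal1-/-, and at 250 kb 0 of 508 (0.13%), with 65 at an unadjusted p under 0.05 (10.3%). As genotype and line are one factor, a difference between these lines cannot be told apart from an effect of Bmal1.

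In the 2 windows of the block the differences were near 0 with median centring. Against line 1 at 5 times, the windows at 79 and 80 Mb had differences of -0.01 (SE 0.16) and 0.00 (SE 0.17), with limma adjusted p of 0.97 and 0.98, and means of 1.16 ± 0.11 and 1.13 ± 0.16 (SD, n = 5) in line 1 against 1.15 ± 0.51 and 1.14 ± 0.50 (SD, n = 2) in Bmal1-/-. The spread between the Bmal1-/- arrays was thus wide, with 0.79 and 0.78 at CT22 against 1.51 and 1.49 at CT34. After quantile normalization the means were 1.06 ± 0.11 and 1.04 ± 0.16 in line 1 and 0.78 ± 0.23 and 0.76 ± 0.22 in Bmal1-/-. The differences were then -0.28 (SE 0.080) and -0.28 (SE 0.092), with limma adjusted p of 0.099 and 0.15. With line 1 at CT34 left out as well they were -0.32 (SE 0.069) and -0.35 (SE 0.067), with adjusted p of 0.026 and 0.015, among 7 of 127 windows of 1 Mb that passed (2.74% of all), the other 5 being higher in Bmal1-/-. At 250 kb 1 of 508 passed in that fit (0.18%), the last window of the block from 80750001 to 81000000, with -0.65 (SE 0.099, adjusted p = 0.024). With median centring and without CT34 the differences at 79 and 80 Mb were -0.05 and -0.06, with adjusted p of 0.84 and 0.80. Whether the block is lower in the Bmal1-/- line than in line 1 thus rested on the scaling and on 1 array, and the block was singled out for high values that include line 1. In the share of high probes the block was lower in Bmal1-/- than in line 1 by 19.3 percentage points at CT22 and higher by 1.75 points at CT34, where the line 1 value is that of the array that shares probes with Bmal1-/-.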

How the data were processed

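The members and lists were chosen with earlier results of these data known. The deposited files hold 1 log2 ratio (Cy5, 4C DNA, over Cy3, genomic DNA) per probe of 59 nt, written by the authors with NimbleScan and shifted by the Tukey biweight mean that the file headers record. Base 2 is assumed from that software's usual output. The sources used here give no genome build, background correction or filter, and probes on chromosome 1 end at 197063459, past the last gene there in GRCm38.p6, so coordinates were not matched to that annotation. Per the labels' protocols, chromatin was cut with HindIII, ligated, cut with Csp6I, circularized and amplified from Dbp.

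Each array was centred on its median. Windows of 250 kb (at least 10 probes) and 1 Mb (at least 40) were averaged and tested two-sided by lmFit and eBayes (limma 3.58.1, R 4.3.3; Benjamini-Hochberg over 10027 and 2521 windows of the genome, adjusted p under 0.05). The fits used 4 WT arrays for time, 6 arrays for genotype with time as a term, and 7 WT arrays with a term for line for the rhythm. Among WT arrays, replicate numbers name the cell line, so they pair arrays across CT22 and CT34. Deviations of same-numbered arrays correlated at 0.69 (250 kb) and 0.86 (1 Mb) off chromosome 7. The Bmal1-/- arrays are numbered as line 1 is. For genotype, the replicate block therefore gives the same estimates as the fit against line 1 at CT22 and CT34. The replicates are separate lines, and intervals are exact binomial ones at 95%. Named windows were those of the block, the 10 highest and 5 lowest windows of 250 kb outside it, the 3 with the smallest p in each fit, the first and last Mb, and the 10 block probes high on most arrays. The stretches beside the block and near the distal end, and windows of the fit against line 1 alone, were named after their values were seen. For a share of 0 an approximate bound of up to 3 counts of the total is given instead, which treats probes as independent. The fits were also run on simulated data, with 1 mean per window for all arrays and noise as in line 1. That setting has no difference between lines and no narrower range in line 2, so it does not show how the fits perform here. Alternatives comprised other window measures, scalings, filters, thresholds, block edges and each array left out. The number of arrays limits the precision. Shares and figures were computed in Python 3.11.15 with pandas 2.3.3, numpy 2.4.6, matplotlib 3.10.9 and scipy 1.17.1.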

Additional observations from a re-analysis of the deposited data

Results flagged for a closer look

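The difference between CT34 and CT22 in the share of high probes in the 79 to 81 Mb block was above 0 in Bmal1-/- and below 0 in both WT lines. It was 7.89 percentage points in Bmal1-/-, against -13.2 points in line 1 and -0.44 points in line 2. The line 2 value is 35 against 36 high probes of 228, and the line 1 value rests on the CT34 array, which shares many of its high probes with the Bmal1-/- arrays. This difference of the shares was not tested, and each value is 1 array against 1. In the window means the genotype by time interaction did not pass (limma adjusted p = 0.99 in both windows of the block), and the mean of the block moved in opposite directions in line 1 (-0.30) and line 2 (0.06).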

How the results depend on the processing

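Counts of chromosome 10 windows past an adjusted p of 0.05 were 0 for time and rhythm under all alternatives run, including the replicate block for the line. For Bmal1-/- against WT they stayed 0 with each array left out and with the replicate block, but not under all settings. That block compares Bmal1-/- with line 1 at CT22 and CT34 and is no separate alternative in its estimates. The counts were 38 (250 kb) and 40 (1 Mb) with the trend and robust settings of limma. Against line 1 at 5 times they were 3 and 21, after scaling by the SD 2 and 16, after quantile normalization 0 and 4, and by the share of high probes 0 and 0, with the median difference at 1 Mb turned to -0.35 percentage points. Against line 1 at CT22 and CT34 alone they were 0 and 0. Without line 1 at CT34 they were 0 and 14, and with quantile normalization 1 and 7. The cause was not tested.

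The block stayed above the rest of chromosome 10 throughout. Its fold was 6.75 in line 1, 7.30 in line 2 and 4.33 in Bmal1-/- with the 99th percentile as threshold, and 2.68 in line 2 with the 90th. With the block widened to 78 to 82 Mb it was 3.42 in line 1 and 2.43 in line 2, and against all probes off chromosome 7 it was 5.65 and 3.25. In line 2 it was 3.60 with the percentile taken over all chromosomes and 3.80 over probes with the next within 5 kb. Leaving out each array gave 4.41 to 5.00 for line 1, 3.33 to 3.39 for line 2 and 2.39 to 3.71 for Bmal1-/-. The fold of chromosome 10 over all probes off chromosome 7 in line 1 was 1.20 and 1.10 with the 90th and 99th percentiles, 1.24 with the percentile over all chromosomes and 1.21 without the block. In Bmal1-/- these were 1.22, 1.06, 1.14 and 1.15, and in line 2 it was 0.91 with the 99th percentile and 0.97 without the block.

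The block windows changed sign in Bmal1-/- against WT, from differences of 0.49 and 0.51 at 79 and 80 Mb over 6 arrays. By share of high probes they were -2.03 and -4.70 percentage points, and -9.37 and -11.6 against line 1 at 5 times. Against line 1 at 5 times the means gave -0.0095 at 79 Mb, after quantile normalization -0.276 and -0.279, and after scaling by the SD -0.289 and -0.270. Without CT34 they were -0.048 and -0.060, and after quantile normalization -0.321 and -0.345. Quantile normalization over the 6 arrays gave -0.032 at 80 Mb. With the replicate block, which compares Bmal1-/- with line 1 at CT22 and CT34, they were 0.017 and 0.085. The difference between CT34 and CT22 in WT ran from -0.635 to 0.468 at 79 Mb and from -0.680 to 0.364 at 80 Mb when each array was left out. Of the other alternative values of single named windows, 17 passed where the value reported did not, and 209 kept the side of the threshold. These 209 also kept direction, except that rhythm amplitudes have no direction to check.

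Precision is limited by 1 array for each line and time, by 1 line for the Bmal1-/- genotype, by the narrow range of line 2 and by the likeness of line 1 at CT34 to the other line at single probes. No dye was swapped, so dye and 4C product cannot be told apart.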
